A study of Mus musculus with 4 samples.

Results

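Lysyl oxidases and collagen hydroxylases were followed as a set of 8 genes out of the 32285 listed for every section, namely Lox, Loxl1, Loxl2, Loxl3, Plod1, Plod2, P4ha1 and P4ha2. They were taken by gene symbol from the enzymes that modify and crosslink collagen, by a rule that reads no measured value, though earlier results of these data were known, and all 8 were found under a symbol that no other gene shares. Expression was measured with 10x Visium, which counts transcripts as unique molecular identifiers (UMIs) in spots on an array beneath a tissue section, so that a spot can cover several cells. The 4 sections were oral mucosa at postoperative day 4, unwounded oral mucosa, facial skin at postoperative day 4 and unwounded facial skin, with 1 section in each group. All came from wildtype mice and flash-frozen tissue, and the labels used here give no age, strain or sex and no location of a wound within a section. Each comparison therefore sets 1 section against another, has no replicate check, and carries intervals for counting error only.

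Collagen chains are modified before and after they leave the cell. Prolyl 4-hydroxylases, whose catalytic alpha subunits include P4ha1 and P4ha2, hydroxylate prolines in the endoplasmic reticulum and let the triple helix form at body temperature, while the lysyl hydroxylases Plod1 and Plod2 hydroxylate lysines of the helix and of the telopeptides at its ends. Outside the cell the copper-dependent lysyl oxidases (Lox, Loxl1, Loxl2 and Loxl3) oxidise lysine and hydroxylysine side chains to aldehydes, which condense into the covalent crosslinks that give collagen and elastin fibres their strength.

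Promoters are shown for P4ha1, P4ha2 and Plod1, the 3 members found in the promoter table used. These members did not differ, by the rule used below, between day 4 and unwounded sections of either tissue. A hypoxia motif is marked because P4ha1 and P4ha2 are, as background, known targets of hypoxia-inducible factors. The RefSeq promoter table of GRCm38.p6 matched 3 of the 8 members, with 250 bases before and 50 after each gene's start, written 5′ to 3′ on the gene's strand. P4ha1 lies at chr10:59323046-59323345 on the plus strand, P4ha2 at chr11:54100674-54100973 on the plus strand and Plod1 at chr4:147936727-147937026 on the minus strand. Capitals mark the core hypoxia response element, ACGTG read on either strand, whose reverse complement is CACGT.
P4ha1: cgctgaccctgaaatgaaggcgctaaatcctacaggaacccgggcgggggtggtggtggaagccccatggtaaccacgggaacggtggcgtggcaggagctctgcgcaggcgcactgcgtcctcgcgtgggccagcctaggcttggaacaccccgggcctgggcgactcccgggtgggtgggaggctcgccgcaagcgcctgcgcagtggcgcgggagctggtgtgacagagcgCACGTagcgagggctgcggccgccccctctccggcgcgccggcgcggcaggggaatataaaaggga
P4ha2: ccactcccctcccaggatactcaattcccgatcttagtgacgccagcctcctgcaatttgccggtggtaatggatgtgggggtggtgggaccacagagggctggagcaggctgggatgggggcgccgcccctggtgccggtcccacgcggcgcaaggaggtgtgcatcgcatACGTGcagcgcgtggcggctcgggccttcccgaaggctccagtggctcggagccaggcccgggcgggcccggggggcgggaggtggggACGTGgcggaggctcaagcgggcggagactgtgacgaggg
Plod1: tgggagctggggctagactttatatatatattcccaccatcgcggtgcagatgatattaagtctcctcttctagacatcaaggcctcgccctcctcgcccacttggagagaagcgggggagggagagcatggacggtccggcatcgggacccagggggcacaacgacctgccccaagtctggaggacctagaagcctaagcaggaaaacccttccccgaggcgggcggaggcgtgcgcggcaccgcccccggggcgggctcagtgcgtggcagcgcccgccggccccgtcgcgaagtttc
P4ha1 held 1 match on the reverse strand, starting 16 bases before the start that the promoter table uses, and P4ha2 held 2 on the forward strand, starting 78 bases before and 10 bases after its start. For P4ha1 that start lies downstream of the first base of the gene in the RefSeq gene table of the same build, so this match is inside the annotated gene. The Plod1 window had 0 matches. Of all 32851 promoter windows of this length 19.6% held the motif, so a match is a description of these letters and not a bound site.

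The oral sections held 430 spots at day 4 and 1288 unwounded, and the facial sections 1141 at day 4 and 671 unwounded, with between 3004174 and 11939479 UMIs in a section. In unwounded oral mucosa 652 of the 1288 spots had under 100 UMIs and held 0.35% of its UMIs, while the other sections had 2 to 8 such spots. The tissue labels were checked with 4 keratins of oral epithelium, carried mainly by Krt13 and Krt4, which summed to 28594 and 42188 CPM (the UMIs of a gene scaled to the total of its section) in the day 4 and unwounded oral sections and to 8.86 and 17.2 CPM in the day 4 and unwounded facial sections. Krt24 of that list went the other way at day 4, with 0.999 CPM on 3 UMIs in oral mucosa and 7.55 CPM in facial skin. Skeletal muscle markers reached 47675 CPM in day 4 and 56462 CPM in unwounded oral mucosa, against 1036 and 1245 CPM in day 4 and unwounded facial skin. The section labelled unwounded facial skin carried more neutrophil marker transcripts than the day 4 facial section (7 of 7 genes lower at day 4), at 248 CPM in day 4 and 6248 CPM in unwounded facial skin, and more wound keratinocyte marker transcripts (4 of 6 genes lower at day 4), at 5506 CPM in day 4 and 10163 CPM in unwounded facial skin. Regenerating muscle markers went the other way (5 of 6 genes higher at day 4), at 71.2 CPM in day 4 and 7.96 CPM in unwounded facial skin. Both day 4 sections carried Xist and both unwounded sections carried Y-linked transcripts, so day and sex of the animals cannot be told apart. Salivary gland markers stood at 3998 CPM in day 4 oral mucosa and at 34.3 CPM in unwounded oral mucosa. In such sums, fewer cells of a type and less RNA per cell cannot be told apart.

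Day 4 oral mucosa carried more transcripts of all 4 lysyl oxidases and of Plod2 than unwounded oral mucosa, while Plod1, P4ha1 and P4ha2 did not differ by the rule. A gene was counted as higher or lower when it had 20 or more UMIs in the pair of sections, differed at least 1.5-fold in CPM, and had exact 95% Poisson intervals apart from each other. By that rule 5 of 8 members were higher and 0 lower at day 4 than in unwounded oral mucosa, beside 20.6% of 12544 genes higher and 3.56% lower. With TMM scaling, which sets sections against a trimmed mean of gene ratios, 4 members were higher (all but Loxl1 of the 5) and 1 lower (P4ha2), beside 10.3% of genes higher and 9.67% lower. The median log2 ratio, computed with 10 CPM added to both sides, was 0.73 for the 8 members. It was 0.18 for all genes that reached 100 UMIs in the pair. These medians do not share that limit, since Loxl3 (58 and 30 UMIs) and Plod2 (41 and 20 UMIs) fell below it. On this scale Loxl3 and Plod2 stood at 1.05 and 0.89, above the member median.

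Lox, the founding lysyl oxidase, which acts on both fibrillar collagen and elastin, had 81.6 CPM in day 4 oral mucosa and 4.94 CPM in unwounded oral mucosa, against 96.2 CPM in day 4 facial skin and 88.9 CPM in unwounded facial skin. These levels rest on 245, 36, 956 and 1062 UMIs in the same order of sections. The unwounded oral section was the low one of the 4, and its interval of 3.46 to 6.84 CPM lay far below that of the day 4 oral section, 71.7 to 92.4 CPM. Between day 4 and unwounded oral mucosa Lox differed 16.5-fold (log2 ratio 4.04, 95% interval 3.54 to 4.59). In order of level, day 4 facial skin, unwounded facial skin and day 4 oral mucosa had neighbouring intervals that overlapped, and only the step down to unwounded oral mucosa was separate.

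Loxl1, a lysyl oxidase known for its part in elastic fibre maintenance, had 121 CPM in day 4 and 64.4 CPM in unwounded oral mucosa, against 91.8 CPM in day 4 and 81.7 CPM in unwounded facial skin. Day 4 oral mucosa was highest and unwounded oral mucosa lowest, both with intervals apart from the facial sections, whose own intervals overlapped. The oral difference was 1.88-fold (log2 ratio 0.91, 0.71 to 1.11).

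Loxl2, which crosslinks among others the type IV collagen of basement membranes, had 29.96 CPM in day 4 and 15.5 CPM in unwounded oral mucosa, against 46.5 CPM in day 4 and 36.3 CPM in unwounded facial skin. Here the 2 facial sections stood highest, and the interval of day 4 oral mucosa overlapped that of unwounded facial skin. Day 4 exceeded unwounded oral mucosa 1.93-fold (log2 ratio 0.95, 0.53 to 1.36).

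Loxl3, a lysyl oxidase needed for palate and spine development in mice, had 19.3 CPM in day 4 and 4.12 CPM in unwounded oral mucosa, against 8.25 CPM in day 4 and 7.71 CPM in unwounded facial skin. The day 4 oral section was highest and the unwounded oral section lowest, with the facial sections between them and overlapping each other. Its oral ratio was 4.69-fold (log2 2.23, 1.57 to 2.92), from 58 UMIs in day 4 and 30 UMIs in unwounded oral mucosa.

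Among the lysyl hydroxylases, Plod2, which hydroxylates telopeptide lysines and is known for its part in fibrosis, had 13.6 CPM in day 4 and 2.75 CPM in unwounded oral mucosa, against 4.93 CPM in day 4 and 2.09 CPM in unwounded facial skin. It was the scarcest count of the set, with 41, 20, 49 and 25 UMIs in those sections, and day 4 oral mucosa stood apart above the rest, whose neighbouring intervals overlapped. Day 4 exceeded unwounded oral mucosa 4.97-fold (log2 ratio 2.31, 1.51 to 3.16). Plod1, which hydroxylates lysines within the helix, had 32.0 CPM in day 4 and 26.4 CPM in unwounded oral mucosa, against 32.2 CPM in day 4 and 44.9 CPM in unwounded facial skin. Its oral log2 ratio of 0.28 had an interval of -0.09 to 0.64, and unwounded facial skin was the one section that stood apart, above the rest.

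The prolyl hydroxylase subunits were the members closest in level across sections. P4ha1 had 22.3 CPM in day 4 and 22.2 CPM in unwounded oral mucosa, against 25.1 CPM in day 4 and 37.0 CPM in unwounded facial skin. P4ha2 had 19.6 CPM in day 4 and 25.3 CPM in unwounded oral mucosa, against 19.8 CPM in day 4 and 25.0 CPM in unwounded facial skin. The oral log2 ratios were 0.00 (-0.43 to 0.42) for P4ha1 and -0.36 (-0.81 to 0.07) for P4ha2. All 4 intervals of P4ha2 overlapped their neighbours, and for P4ha1 only unwounded facial skin stood apart.

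**Figure D1:**
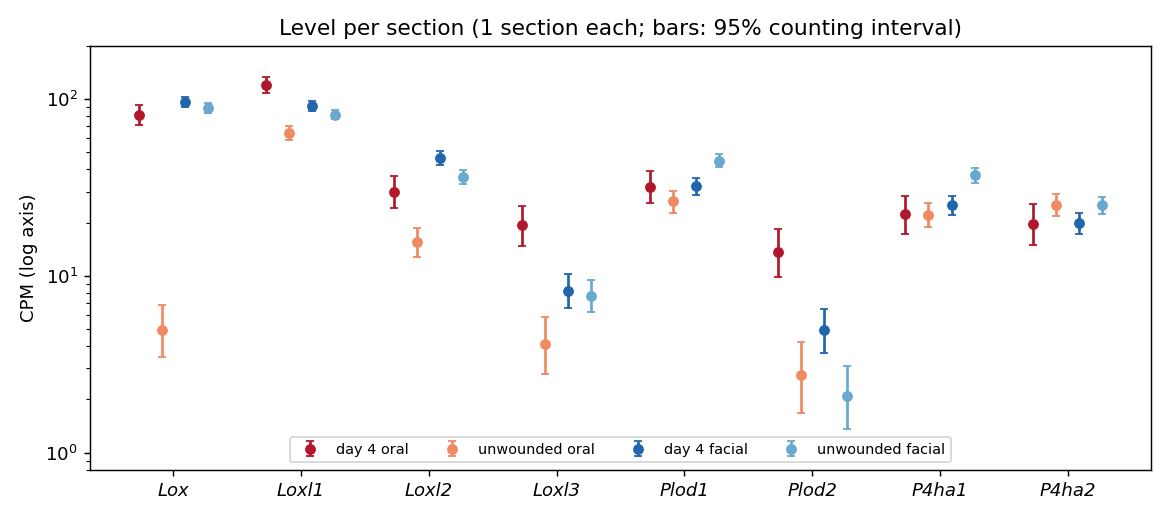
CPM (log axis) of each member in day 4 oral, unwounded oral, day 4 facial and unwounded facial sections, 1 section each, with bars for the 95% Poisson interval of the count. Lox lies at 4.94 CPM in unwounded oral mucosa and between 81.6 and 96.2 CPM in the other sections, while P4ha2 stays between 19.6 and 25.3 CPM.

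In facial skin the same comparison gave fewer differences. Plod2 was higher at day 4 than in unwounded facial skin, 2.36-fold (log2 ratio 1.24, 0.51 to 1.99), and no other member was counted, so 1 of 8 was higher and 0 lower beside 6.09% of 14231 genes higher and 8.59% lower. Lox, at a log2 ratio of 0.11 (-0.01 to 0.24), and Loxl3, at 0.10 (-0.35 to 0.54), had intervals that included 0. Loxl1 (0.17) and Loxl2 (0.36) lay above 0 and Plod1 (-0.48), P4ha1 (-0.56) and P4ha2 (-0.34) below it, all within 1.5-fold. The median was 0.07 for the members and -0.04 for all genes. Leaving out the neutrophil-richest region of the unwounded facial section, which held 3.89% of its UMIs, gave the same count, with Lox at 0.06 and Plod2 at 1.18.

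That facial count depended on how spots were weighted. With the mean of spot CPM over spots of at least 1000 UMIs, each spot counts equally whatever its depth. By that mean 5 members (Lox, Loxl1, Loxl2, Loxl3 and Plod2) were higher at day 4 than in unwounded facial skin, and Lox had a log2 ratio of 0.87. Such calls needed 1.5-fold and an interval of the log2 ratio that excluded 0, which is not the rule of separate intervals used above. The share of all genes was not computed for the mean over spots or for the parts left out below. Removing in turn each of 4 parts of either facial section moved the count of higher members between 0 and 4. It was 0 without the part at high array columns and low rows of either section, 3 (Lox, Loxl2 and Plod2) without the part at low columns and high rows of the day 4 section, 4 (Lox, Loxl1, Loxl2 and Plod2) without the part at low columns and low rows of the unwounded section, and 2 without its part at high columns and high rows. Plod1 and P4ha1 were lower at day 4 without the part at high columns and low rows of either section. Plod1 alone was lower without the part at low columns and low rows of the day 4 section. The same held without the part at low columns and high rows of the unwounded section.

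The facial ratios rest on the section labelled unwounded facial skin, whose neutrophil and wound keratinocyte markers go against its label. The difference between the ratios of day 4 over unwounded in the tissues, oral minus facial, was positive with an interval above 0 for 7 of the 8 members, beside 39.1% of 12193 genes above 0 and 8.98% below 0 and a median of 0.34 over those genes. Lox differed by 3.93 log2 units (3.41 to 4.45), Loxl3 by 2.13 (1.36 to 2.90) and Plod2 by 1.08 (0.04 to 2.12). The Plod2 difference turned to -0.89 with the mean over spots and to -0.43 per collagen UMI, with intervals that included 0. Loxl1 (0.74), Loxl2 (0.59), Plod1 (0.76) and P4ha1 (0.57) differed by less, and P4ha2 gave -0.03 (-0.52 to 0.47). With TMM scaling, which lowers the oral wound ratios of all genes by 0.34 log2 units and raises the facial ones by 0.06, 3 of these intervals stayed above 0, those of Lox (3.53), Loxl1 (0.34) and Loxl3 (1.73). With the mean over spots only Lox (3.67) and Loxl3 (1.56) had intervals above 0. Per collagen UMI only Lox (2.42) did. On that scale the intervals of Loxl1 (-0.77), Loxl2 (-0.92), Plod1 (-0.75), P4ha1 (-0.94) and P4ha2 (-1.53) lay below 0. The share of all genes was not computed for these differences.

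Between the unwounded sections, 5 of the 8 members were lower in oral mucosa than in facial skin (Lox, Loxl2, Loxl3, Plod1 and P4ha1) and 0 higher, a share near the 59.7% of 14026 genes that were lower, with 10.1% higher. Lox, at 4.94 CPM in oral mucosa and 88.9 CPM in facial skin, had a log2 ratio of -4.17 (-4.69 to -3.69). The others were lower by less, Loxl2 2.34-fold, Loxl3 1.87-fold, Plod1 1.70-fold and P4ha1 1.66-fold. Without the neutrophil-richest region of the facial section the counts were again 5 and 0, with Lox at -4.22. Leaving out parts of a section gave 2 to 6 lower members, with Lox and Loxl2 lower each time, and the fewest without the part of the facial section at high array columns and high rows. The median was -0.44 for the members and -0.60 for all genes, and with TMM scaling, which shifts this comparison by 0.76 log2 units, Lox alone was lower and P4ha2 alone higher, with 20.3% of genes higher and 27.0% lower.

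At day 4 members differed between the tissues in both directions. Loxl3 was 2.34-fold and Plod2 2.77-fold higher in oral mucosa than in facial skin and Loxl2 was 1.55-fold lower, which made 2 members higher beside 11.5% of 13633 genes and 1 lower beside 35.5%. Lox was at -0.24 (-0.45 to -0.03) and Loxl1 at 0.40 (0.22 to 0.57), both within 1.5-fold. Leaving out the gland region of the day 4 oral section gave the same 2 and 1 members, and Lox then stood at -0.55. Without the part of the day 4 oral section at high array columns and low rows, 0 members were higher and 3 lower (Lox, Loxl2 and P4ha1). Without its part at low columns and high rows, or the part of the facial section at high columns and low rows, 3 were higher (Loxl1, Loxl3 and Plod2) and 0 lower, and without the facial part at low columns and high rows 2 were lower (Lox and Loxl2). With TMM scaling 3 members were higher, Loxl1 among them, and 0 lower, beside 17.2% of genes higher and 18.6% lower.

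**Figure D2:**
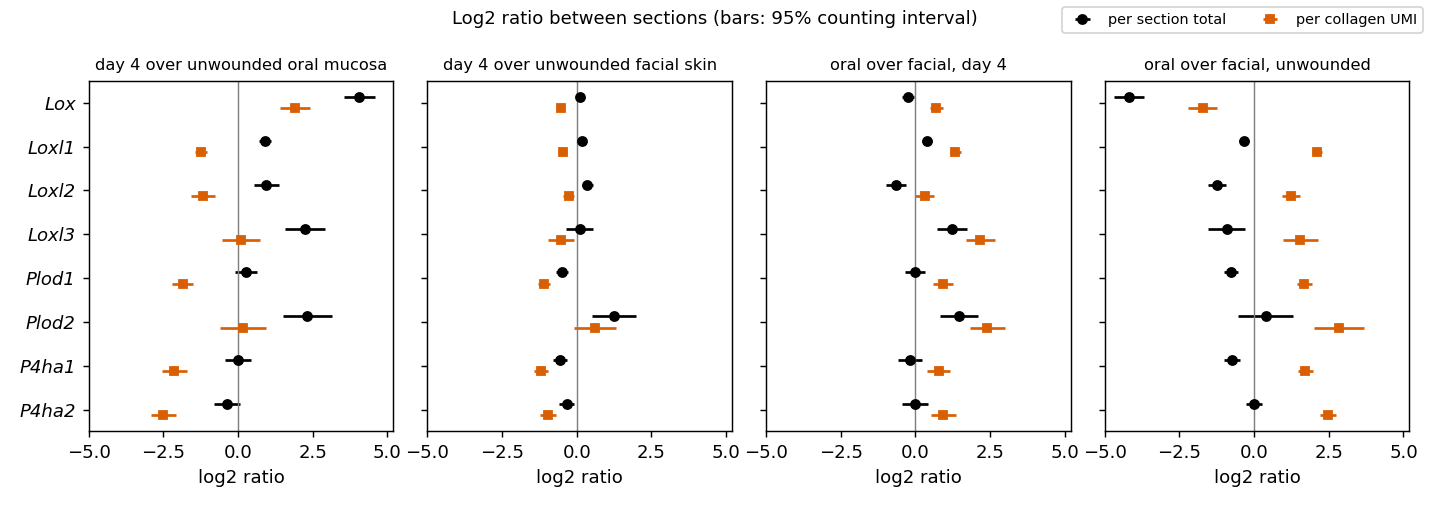
Log2 ratio of each member in 4 comparisons of sections, from section CPM (black circles) and per UMI of the collagen transcripts Col1a1, Col1a2 and Col3a1 (orange squares), with 95% counting intervals. In oral mucosa at day 4 the Lox ratio is 4.04 by CPM and 1.91 per collagen UMI, and both lie right of 0, while Loxl1, Loxl2 and Plod1 lie right of 0 by CPM and left of it per collagen UMI.

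Each section held 2 separate pieces of tissue of at least 40 touching spots, a split made after the spot maps were seen, and the labels do not say whether the pieces of a section come from 1 animal or more. Lox had 74.2 and 107 CPM in the pieces of day 4 oral mucosa and 3.74 and 5.57 CPM in those of unwounded oral mucosa. Loxl1 had 107 and 165 CPM in the day 4 pieces and 63.6 and 64.8 CPM in the unwounded pieces, and Plod2 had 11.4 and 21.5 CPM in the day 4 pieces against 4.57 and 1.86 CPM in the unwounded ones. Pieces were compared by CPM alone, without the rule of separate intervals. Both day 4 oral pieces lay above both unwounded oral pieces for the same 5 members that the section totals gave, beside 35.7% of genes, and 0 members lay below, beside 7.26%. For 2 of these members intervals of a day 4 and an unwounded piece overlapped. They were Loxl2 (15.3 to 40.8 CPM in day 4 and 13.3 to 24.5 CPM in unwounded) and Plod2 (7.42 to 16.6 CPM in day 4 and 2.28 to 8.18 CPM in unwounded). Plod1, P4ha1 and P4ha2 had overlapping pieces.

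The pieces of day 4 facial skin differed from each other. Lox had 27.2 and 213 CPM in the pieces of day 4 facial skin, against 80.2 and 119 CPM in those of unwounded facial skin, so that the unwounded pieces fell between the day 4 ones. Loxl3 had 3.05 and 17.0 CPM in the day 4 facial pieces and 6.31 and 12.5 CPM in the unwounded ones, and Loxl1 had 53.2 and 157 CPM against 73.2 and 111 CPM. The piece with more Lox held 3701701 UMIs and 13902 CPM of the 3 collagen transcripts, against 6222253 UMIs and 3935 CPM in the other, and its macrophage markers stood at 1647 CPM against 672 CPM. By CPM alone, Plod2 was the single member higher in both day 4 facial pieces, at 3.05 and 8.10 CPM, than in both unwounded pieces, at 2.07 and 2.21 CPM, beside 16.4% of genes. The interval of the day 4 piece at 3.05 CPM overlapped those of both unwounded pieces. In both pieces 0 members were lower, beside 25.0% of genes. For Lox in facial skin the spread between pieces of 1 section was therefore larger than the difference between the section totals.

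Between tissues, again by CPM alone, both unwounded oral pieces lay below both unwounded facial pieces for 6 members (Lox, Loxl1, Loxl2, Loxl3, Plod1 and P4ha1), beside 69.8% of genes, and above them for 0, beside 12.4%. Intervals of an oral and a facial piece overlapped for Loxl1 (53.9 to 74.5 and 67.7 to 78.9 CPM). They also overlapped for Loxl3 (2.84 to 6.87 and 4.79 to 8.16 CPM) and P4ha1 (20.3 to 29.4 and 28.1 to 35.5 CPM). At day 4 both oral pieces lay above both facial pieces for Plod2 alone, beside 13.5% of genes, and below them for 0 members, beside 48.0%. The Plod2 intervals of an oral piece (7.42 to 16.6 CPM) and a facial piece (5.47 to 11.6 CPM) overlapped.

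**Figure D3:**
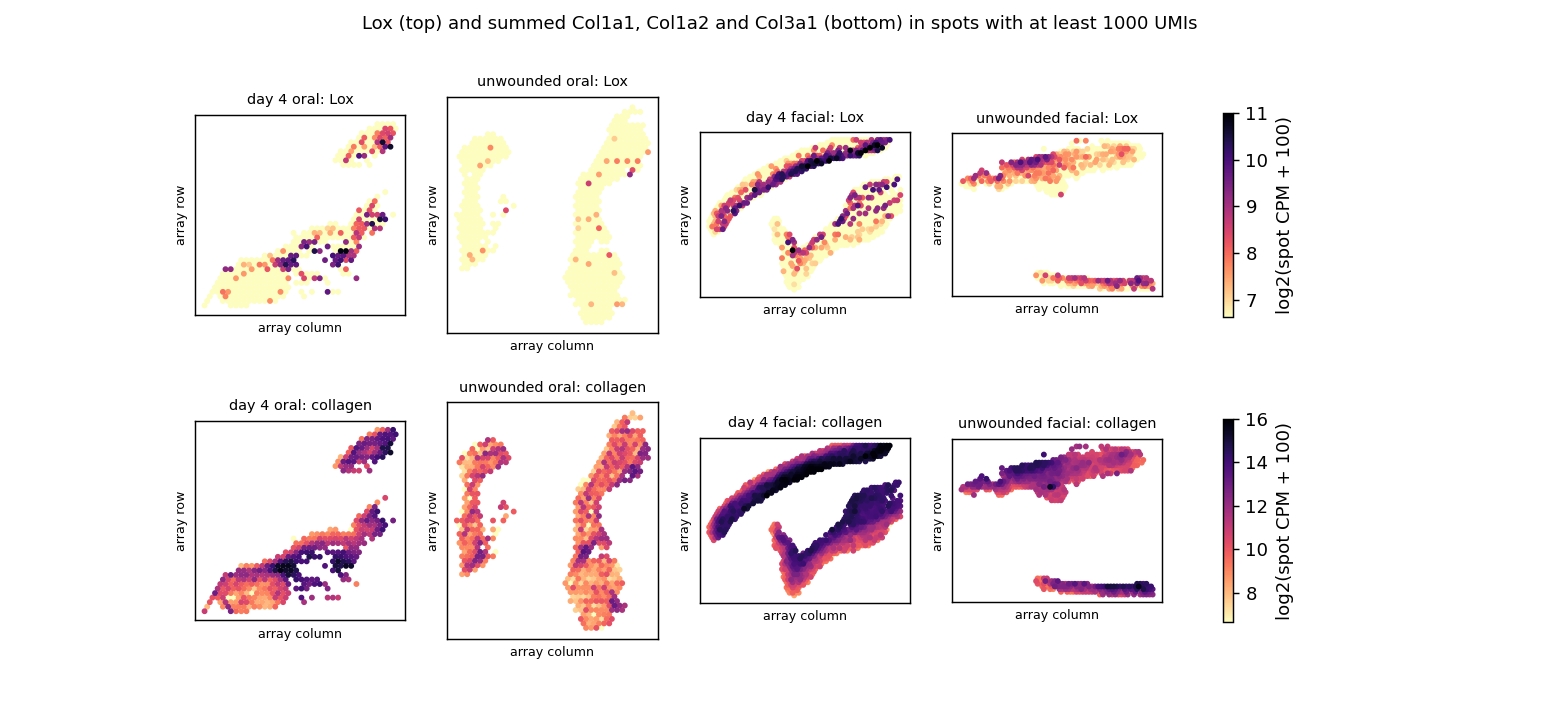
Spots of at least 1000 UMIs at their array positions in day 4 oral, unwounded oral, day 4 facial and unwounded facial sections, coloured by log2(spot CPM + 100) for Lox in the upper row and for summed Col1a1, Col1a2 and Col3a1 in the lower row. Each section shows 2 main pieces, Lox lies along the collagen-rich side of the pieces, and unwounded oral mucosa has few spots with any Lox.

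Relative to collagen transcripts the members behaved differently. Col1a1, Col1a2 and Col3a1 together had 3977 CPM in day 4 and 907 CPM in unwounded oral mucosa, against 7659 CPM in day 4 and 4968 CPM in unwounded facial skin. Per 1000 UMIs of these 3 transcripts, Lox had 20.5 UMIs in day 4 and 5.45 in unwounded oral mucosa, against 12.6 in day 4 and 17.9 in unwounded facial skin. Lox was the single member higher per collagen UMI at day 4 than in unwounded oral mucosa, 3.76-fold, where 1.45% of genes were higher and 87.2% lower. Shares of genes per collagen UMI, here and below, used the rule of separate intervals. Member calls per collagen UMI needed 1.5-fold and an interval of the log2 ratio that excluded 0. The rule of separate intervals called the same members. Loxl1, Loxl2, Plod1, P4ha1 and P4ha2 were lower on that scale, from 2.27-fold for Loxl2 to 5.64-fold for P4ha2. Loxl3 had 4.85 per 1000 in day 4 and 4.54 in unwounded oral mucosa and Plod2 had 3.43 and 3.03, with ratios whose intervals included 0 on the log2 scale.

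In facial skin 0 members were higher and 3 lower per collagen UMI at day 4 (Plod1 2.15-fold, P4ha1 2.28-fold and P4ha2 1.95-fold), beside 1.37% of genes higher and 53.5% lower. Lox was 1.43-fold lower there, inside the 1.5-fold limit. Oral mucosa exceeded facial skin per collagen UMI in 7 members at day 4, all but Loxl2, beside 36.6% of genes, and was lower in 0, beside 6.30%. Unwounded oral mucosa also exceeded facial skin in 7 members, all but Lox, beside 77.7% of genes, and Lox was 3.29-fold lower, beside 3.76% of genes. The per-collagen levels of P4ha1 and P4ha2 in unwounded oral mucosa, 24.5 and 27.8 per 1000, were their highest of the 4 sections. The same held for Loxl1 (71.0), Loxl2 (17.1) and Plod1 (29.1), while Lox, Loxl3 and Plod2 were highest in day 4 oral mucosa. Unwounded oral mucosa was also the section with the lowest collagen level, 907 CPM.

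Within sections, most members were most frequent in collagen-rich spots. Spots of at least 1000 UMIs were ranked by the share of the 3 collagen transcripts and cut into quartiles of equal size. Lox had 361 CPM in the top quartile of spots and 7.995 CPM in the bottom quartile of day 4 oral mucosa, and 18.8 and 2.36 CPM in unwounded oral mucosa. Facial skin had 587 CPM in the top and 7.75 CPM in the bottom quartile at day 4, and 265 and 12.2 CPM in the unwounded section. The top quartile was higher than the bottom quartile for 7 members in the day 4 and 5 in the unwounded oral section, and for 8 in the day 4 and 7 in the unwounded facial section. Over all genes tested the shares higher in the top quartile were 33.5%, 23.0%, 38.0% and 35.0% in those sections.

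The steepest of these gradients was that of Lox in day 4 facial skin, 75.7-fold (54.9 to 107). Plod1 in day 4 oral mucosa, at 47.6 CPM in the top and 20.8 CPM in the bottom quartile, was not counted, nor was Plod2 in unwounded facial skin, at 4.2 and 2.12 CPM. In unwounded oral mucosa P4ha2 (1.78-fold) was not counted, and Loxl3 and Plod2 had fewer than 20 UMIs over both quartiles.

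Inside the collagen-rich quartile the 4 lysyl oxidases and Plod2 were higher in the day 4 than in the unwounded section of both tissues. For Lox the ratio of day 4 over unwounded in the top quartile was 19.2-fold in oral mucosa (log2 4.26, 3.60 to 4.98) and 2.22-fold in facial skin (log2 1.15, 0.999 to 1.298). Loxl1 was 2.38-fold higher in oral mucosa and 1.76-fold in facial skin, Loxl2 2.74-fold and 1.99-fold, Loxl3 5.37-fold and 1.93-fold, and Plod2 10.7-fold and 5.09-fold. The Plod2 ratios rest on 23 and 7 UMIs in oral mucosa (log2 interval 2.16 to 4.89) and 26 and 12 UMIs in facial skin (1.31 to 3.47). The oral Loxl3 ratio rests on 23 and 14 UMIs (1.41 to 3.50). Thus 5 members were counted as higher at day 4 in each tissue, beside 18.1% of 8680 genes in oral mucosa and 10.9% of 12139 genes in facial skin, and 0 as lower, beside 5.92% and 12.4%. Plod1, P4ha1 and P4ha2 were not counted in either tissue, with ratios between 0.82-fold and 1.35-fold. The quartiles are ranks within a section, and the median collagen share of the top quartile was 1.59% in day 4 and 0.28% in unwounded oral mucosa, against 2.98% in day 4 and 1.06% in unwounded facial skin. Its part in these ratios was not tested.

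Ranking spots by fibroblast markers in place of collagen lost some of these calls. In the facial top quartile Lox then had 367 CPM in day 4 and 266 CPM in unwounded skin, less than 1.5-fold apart, and Loxl3 had 29.3 CPM in day 4 and 20.6 CPM in unwounded skin, with overlapping intervals. In the oral top quartile Loxl2 had 72.3 CPM in day 4 and 41.3 CPM in unwounded mucosa, again with overlapping intervals, while Lox stood at 253 CPM in day 4 and 14.1 CPM in unwounded mucosa.

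Between tissues in that quartile, unwounded oral mucosa was lower than unwounded facial skin in 3 members, Lox (18.8 and 265 CPM), Loxl2 (41.96 and 94.9 CPM) and Plod1 (58.2 and 107 CPM), beside 38.1% of genes, and higher in 0, beside 8.09%. At day 4 oral mucosa was lower than facial skin in Lox (361 and 587 CPM) and Loxl2 (115 and 188 CPM), 2 members beside 10.2% of genes, and higher in Plod2 alone (64.4 and 21.4 CPM), beside 6.66%. The 4 comparisons between sections share sections with each other, so their values are not independent.

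**Figure D4:**
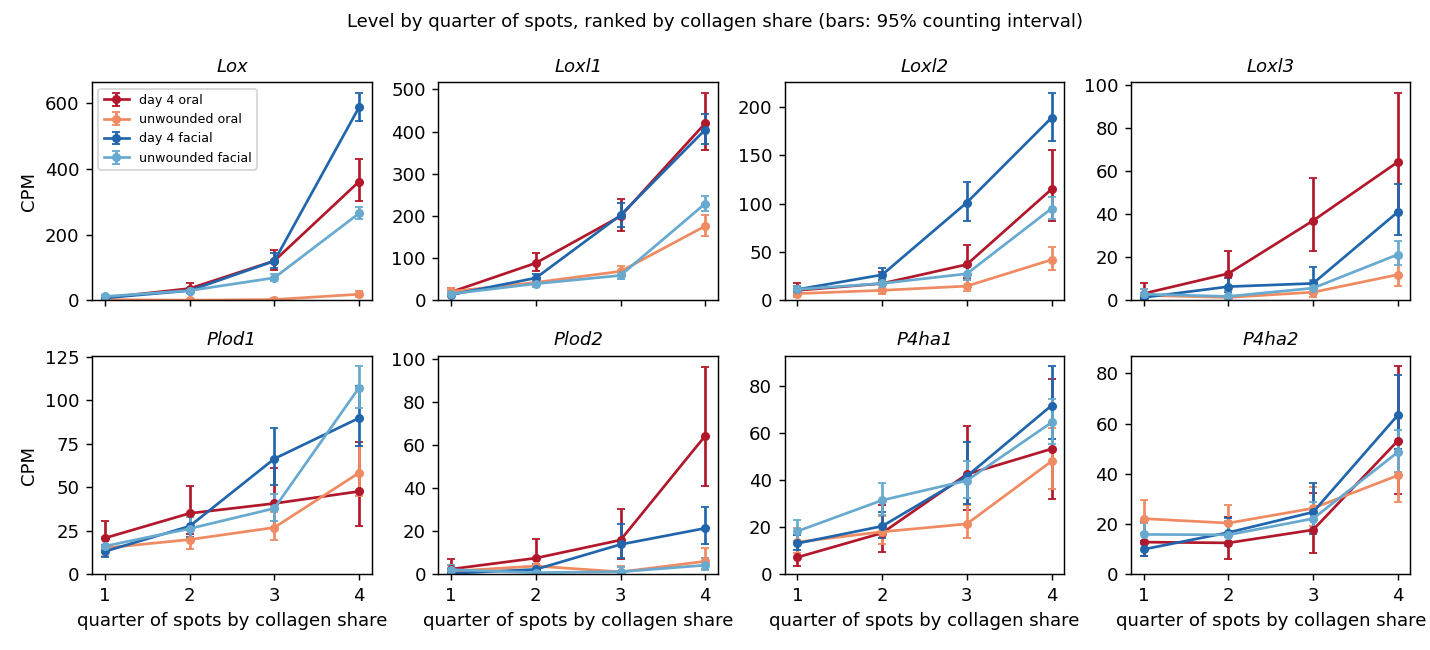
CPM of each member in quartiles of spots ranked by collagen share within a section (1 lowest, 4 highest), for day 4 oral, unwounded oral, day 4 facial and unwounded facial sections, with 95% counting intervals. In the fourth quartile Lox reaches 361 CPM in day 4 oral and 18.8 CPM in unwounded oral mucosa, and 587 CPM in day 4 and 265 CPM in unwounded facial skin.

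Over spots, Lox correlated with collagen share at a Spearman rho of 0.50 in the day 4 oral section (365 spots) and 0.14 in the unwounded one (523 spots), and at 0.52 in the day 4 facial section (1096 spots) and 0.64 in the unwounded one (653 spots). Loxl1 gave 0.52, 0.48, 0.46 and 0.59 in those sections. Spots share a library and differ in depth, so these values are descriptions. Lox had a UMI in 34.5% of spots in day 4 and 5.54% in unwounded oral mucosa, against 34.4% in day 4 and 51.0% in unwounded facial skin. Median depth in these spots was 6657 and 13797 UMIs in day 4 and unwounded oral mucosa and 5658 and 16467 UMIs in day 4 and unwounded facial skin. After thinning every spot to 1000 UMIs the shares were 11.2% (8.18 to 14.9%, exact binomial) in day 4 and 1.15% (0.42 to 2.48%) in unwounded oral mucosa, against 12.9% (10.9 to 14.99%) in day 4 and 7.66% (5.74 to 9.97%) in unwounded facial skin. In the collagen-poor quartile the thinned shares were 3.26% in day 4 and 0% in unwounded oral mucosa, where 0 of 131 spots held a UMI, which by the floor of 3 counts allows a share of up to 2.29%, against 1.82% in day 4 and 1.22% in unwounded facial skin.

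Regions, found by clustering spots without the 8 members and called by their leading genes, showed where the enzymes were most frequent. In day 4 facial skin, Lox peaked at 757 CPM (688 to 832) in the region led by Cxcl5, Spp1 and S100a9, which held 45.5% of the section's Lox UMIs in 5.78% of its UMIs. A second region, led by Myh4, Myl4 and H19 and holding the embryonic myosin Myh3 among its leading genes, had 699.9 CPM of Lox and was the highest for Loxl1 (645 CPM), Loxl2 (416 CPM), Loxl3 (68.6 CPM), Plod2 (54.9 CPM), P4ha1 (114 CPM) and P4ha2 (82.3 CPM). That region held 2.20% of the section's UMIs, and its Plod2 level rests on 12 UMIs. Plod1 was highest in the region led by Myh1, Acta1 and Tnnc2, at 119 CPM.

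In unwounded facial skin 7 of the 8 members, all but Plod2, were highest in the region led by Acta1, Cryab and Myh1, where Lox had 405 CPM and Loxl1 383 CPM. The neutrophil-richest region, led by Cxcl2, Il1b and Cd14, had 10.8 CPM of Lox and 8.61 CPM of Loxl1, near the bottom of the section. At the finer resolution of 1 the shared peak split, with Lox (426 CPM), Loxl1, Plod1 and P4ha2 highest in a region led by Cfd, Hp and Fabp4, Loxl2, Loxl3 and Plod2 in one led by Cryab, Acta1 and Mylpf, and P4ha1 in one led by Mmp3, Mcpt4 and Cpxm1. In day 4 oral mucosa the region led by the gland secretory genes Dcpp1, Dcpp2 and Wfdc18 held the highest Lox and Loxl1, both 309.8 CPM on 60 UMIs, and the highest P4ha1 and P4ha2. The region led by Reg3g, AU040972 and Ccl2 had the highest Loxl2 (95.4 CPM), Loxl3 (72.7 CPM) and Plod1 (54.5 CPM), with Lox at 245 CPM, and the region led by Postn, Myh4 and Mybph the highest Plod2 (32.0 CPM). Unwounded oral mucosa had 7 of 8 members, all but Plod2, highest in the region led by Cfd, Acta2 and Tagln, where Lox was still at 12.99 CPM on 9 UMIs. The share of all genes that peak in each of these regions was not computed. A shared peak is therefore a description and not a trait shown to be particular to the members.

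**Figure D5:**
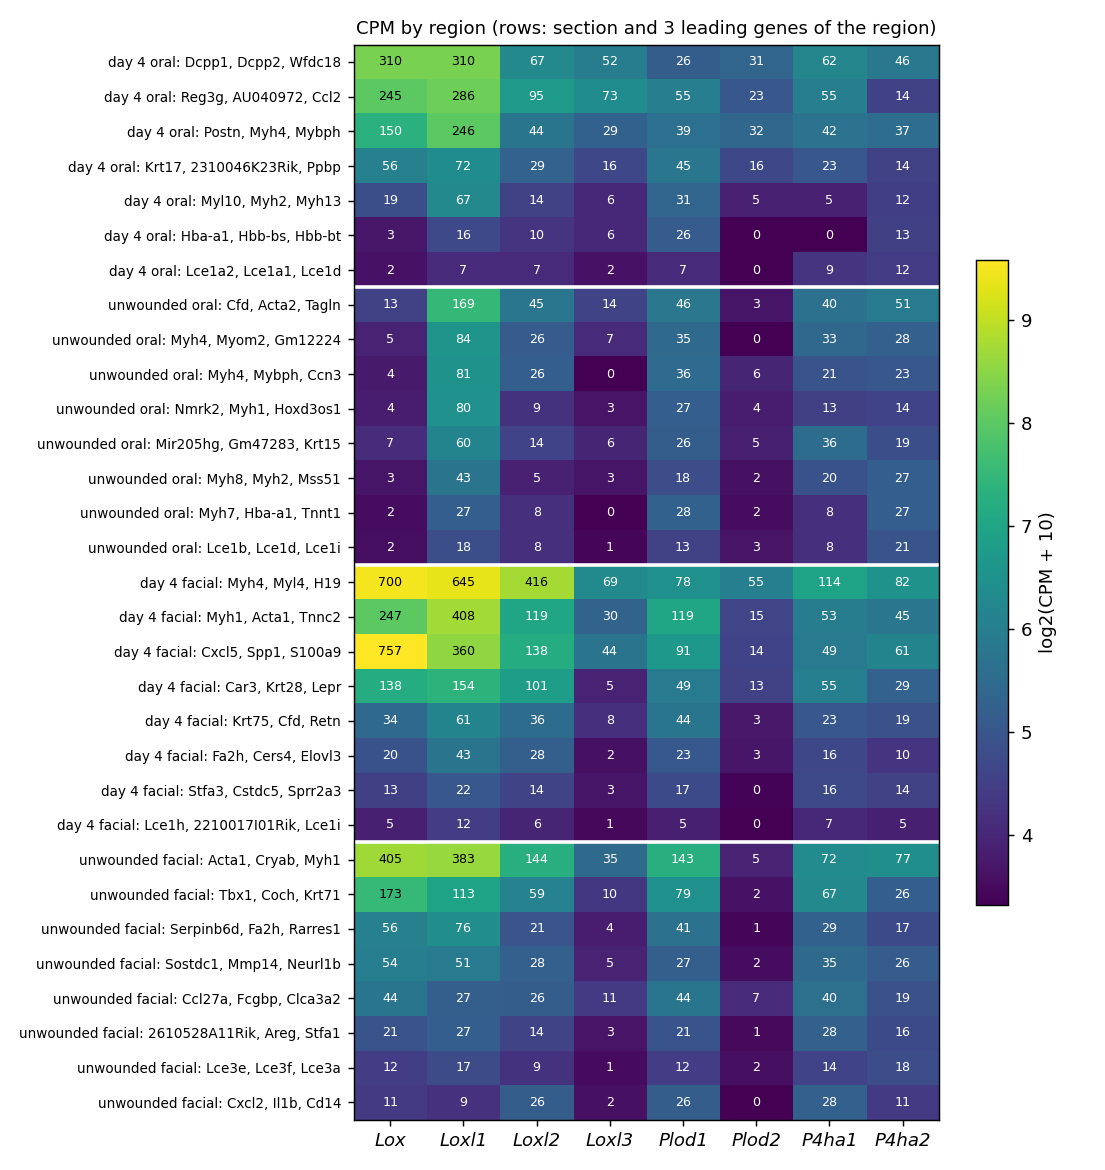
CPM of each member (columns) in the 31 regions (rows, named by section and 3 leading genes) of the day 4 oral, unwounded oral, day 4 facial and unwounded facial sections, coloured by log2(CPM + 10). In day 4 facial skin and unwounded oral mucosa 6 or more members peak in 1 shared region, as they do at the finer resolution. The share of all genes that peak there was not computed. Lox is at most 12.99 CPM in any unwounded oral region.

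The genes whose pattern over the 31 regions was most like that of each member were ranked by Pearson correlation of log2(CPM + 10) centred within section, as a description, since regions of a section share a library. Lox was most like Cmtm3 (0.97), Bicc1 (0.96) and C1qtnf6 (0.96), and Loxl1 most like Col5a1 (0.97), Fn1 (0.97) and Col1a2 (0.96), which encode matrix proteins. Loxl2 was closest to Hip1, Lrrc17 and Plat (0.95 to 0.96), and Loxl3 to Ccr2, Ms4a6b and Lrrc17 (0.92 to 0.94), of which Ccr2 encodes a monocyte chemokine receptor. Plod1 was closest to the complement genes C1qb (0.94) and C1qa (0.93) and to Lgals1 (0.94). Plod2 followed Lrrc17, Atp8b1 and Grb10 (0.85 to 0.89), P4ha1 followed the endoplasmic reticulum genes Txndc5 and Calu (both 0.94) and Rbpj (0.93), and P4ha2 followed Mrc2, Aspn and Ifi211 (all 0.89). Markers of several cell types moved with the members over the same regions, with r from 0.74 to 0.94 for macrophage, 0.69 to 0.93 for fibroblast, 0.72 to 0.91 for endothelial and 0.62 to 0.90 for pericyte and smooth muscle markers, and their part in the levels was not tested.

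Other enzymes and partners of collagen assembly were followed from fixed lists, counted by the same rule and set beside the same 20.6% and 3.56% of genes for oral mucosa and 6.09% and 8.59% for facial skin. Of 10 measurable further hydroxylases, glycosyltransferases and their partners, 4 were higher and 0 lower at day 4 than in unwounded oral mucosa. They were P4ha3, the third prolyl hydroxylase alpha subunit (5.99 CPM in day 4 and 0.27 CPM in unwounded oral mucosa, 18 UMIs and 2 UMIs, log2 ratio 4.45, 2.39 to 7.60), P3h4, P3h1 and Crtap, of which P3h1 and Crtap form the prolyl 3-hydroxylase complex. In facial skin 1 of 12 was higher, again P4ha3 (11.1 CPM in day 4 and 3.10 CPM in unwounded facial skin), and 2 were lower, the prolyl hydroxylase beta subunit P4hb (log2 ratio -0.63) and the collagen galactosyltransferase Colgalt1 (-0.62). Loxl4, the remaining lysyl oxidase, had 1, 2, 15 and 24 UMIs in day 4 oral, unwounded oral, day 4 facial and unwounded facial sections.

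Chaperones and export factors of procollagen were higher in 4 of 7 in oral mucosa, among them Fkbp10, a prolyl isomerase that acts with Plod2 (log2 ratio 2.26), Creb3l1, a transcription factor of the secretory pathway (1.43), and Serpinh1, the collagen chaperone Hsp47 (1.04). In facial skin 1 of 7 was higher, Serpinh1 (0.74), and 0 lower. Procollagen proteinases and their enhancers were higher in 3 of 4 in oral mucosa, among them Bmp1, which also cleaves the Lox propeptide (1.18), and in facial skin 1 of 6 was higher (Adamts14, 1.51) and 1 lower (Adamts2, -0.65). All 8 crosslinking substrates tested were higher at day 4 than in unwounded oral mucosa, with Col1a1 at 2.78, and 2 of 8 were higher in facial skin, Col1a1 (1.04) and Col5a1 (0.92).

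Fibril and elastic fibre partners were higher in 8 of 10 in oral mucosa, including periostin (Postn, 689 CPM in day 4 and 17.0 CPM in unwounded oral mucosa, log2 ratio 5.34) and fibronectin (Fn1, 2.47), both known to help Bmp1 activate Lox. In facial skin 2 of 10 were higher, Fn1 (1.14) and Sparc (0.71), and 2 lower, Fmod (-1.13) and Fbln5 (-0.71). Genes of the TGF beta pathway, a known inducer of lysyl oxidases, were higher in 8 of 12 and lower in 0 in oral mucosa, with Tgfb3 at 1.57, and in facial skin 1 of 12 was higher and 5 lower, with Ltbp1 at -1.09. Of the hypoxia response genes 1 of 14 was higher (Slc2a1, 0.66) and 2 were lower (Hk2, -0.97, and Bnip3, -0.79) in oral mucosa, and in facial skin 0 of 15 were higher and 3 lower (Car9, Ero1l and Ndrg1).

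Makeup of the sections moved with these comparisons. Fibroblast markers summed to 677 CPM in day 4 and 557 CPM in unwounded oral mucosa, against 1339 and 1229 CPM in day 4 and unwounded facial skin. Macrophage markers stood at 1222 CPM in day 4 and 293 CPM in unwounded oral mucosa, all 7 of them higher, against 1036 and 1147 CPM in day 4 and unwounded facial skin. Neutrophil markers stood at 3888 CPM in day 4 and 32.0 CPM in unwounded oral mucosa. The part of these cells in the member levels was not tested. Per fibroblast-marker UMI, and in spots with under 1% muscle markers, Lox remained higher at day 4 than in unwounded oral mucosa, at log2 ratios of 3.76 and 3.60. Without the gland region, which held 6.45% of the UMIs of day 4 oral mucosa, the same 5 members were higher and Lox stood at 3.74. Without 1 of the 4 parts of that section, at high array columns and low rows, 2 members stayed higher, Lox (3.36) and Loxl3 (1.64).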

How the data were processed

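Raw UMI counts per gene and spot of 4 mouse Visium sections were deposited without normalization, having come, per the file headers, from Space Ranger 1.3.1. Per the submitters' processing notes Space Ranger, Seurat and mm10 were used, with aligner and annotation not given in the sources used here. Spots under tissue were kept (of 4992 on an array), and section sums covered every gene, listed by symbol (38 symbols are shared by several genes, 0 of them members). The labels put 1 section in each group, so no test was made. The members and 25 lists (181 genes, all matched) were chosen with earlier results of these data known, and the pieces of tissue after the maps were seen.

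CPM and exact 95% Poisson intervals were computed from counts (numpy 2.4.6, scipy 1.17.1). These intervals, the exact intervals of ratios and the floor of 3 UMIs (0.25 to 0.999 CPM) cover counting error only. Calls needed 20 UMIs over both sections, 1.5-fold and separate intervals. Median log2 ratios had 10 CPM added, with a minimum of 100 UMIs for all genes and of 20 UMIs for members. Per-collagen calls of members, and calls from the mean over spots, needed 1.5-fold and an interval of the log2 ratio that excluded 0. The shares of all genes per collagen UMI used separate intervals. TMM factors came from edgeR 4.0.16 in R 4.3.3, on counts. Spots of 100 UMIs or more were scaled to 10000, and clustered (scanpy 1.11.5, leidenalg 0.10.2) on 2000 variable genes without the members, 30 components, 15 neighbours and resolution 0.5 or 1. Doublet calling was not run, since spots can hold several cells. Quartiles, correlations and detection used spots of 1000 UMIs or more, thinned to 1000 where stated; 65, 765, 45 and 18 spots fell short in day 4 oral, unwounded oral, day 4 facial and unwounded facial sections. Position barcodes shared by pairs of sections (46 to 347) mark array places, not cells. Genes named were all members, the 3 genes with the pattern most like each member among those with 500 UMIs, and up to 4 called genes a list, besides markers chosen to describe regions. The rule for counting a gene as higher or lower was tested on simulated section sums, and the other steps were not. Figures were drawn with matplotlib 3.10.9.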

Additional observations from a re-analysis of the deposited data

Results flagged for a closer look

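For Lox and its relatives 4 pairs of comparisons pointed opposite ways in the 2 tissues or at the 2 days, with 1 section a group, and none of these differences was tested. Per collagen UMI, Lox was higher at day 4 than in unwounded oral mucosa, at a log2 ratio of 1.91, and lower at day 4 than in unwounded facial skin, at -0.51. Per collagen UMI, Lox was also higher in oral mucosa than in facial skin at day 4 (0.71) and lower in unwounded sections (-1.72). By CPM, Loxl1 was higher in oral mucosa than in facial skin at day 4 (0.40) and lower in unwounded sections (-0.34). Loxl3 did the same, at 1.23 at day 4 and -0.90 in unwounded sections. The Loxl1 values lie within 1.5-fold, and the unwounded one turns positive with TMM scaling (0.42), without mitochondrial and abundant genes in the total (0.18) and with the mean over spots (0.069). The unwounded Loxl3 value is -0.14 with TMM scaling and turns positive per fibroblast-marker UMI (0.24).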

How the results depend on the processing

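The wound difference of Lox in oral mucosa kept its direction and its call under every setting run, with log2 ratios from 1.26 per Col1a1 UMI to 4.65 without 1 part of the day 4 section. Counts of members moved as follows, and the cause was not tested. Shares of all genes higher or lower were computed only for TMM scaling, the total without mitochondrial and abundant genes, and the 3 collagen transcripts. Under the other settings a count of members therefore has no share of genes to be set beside. With TMM scaling, day 4 over unwounded oral mucosa had 1 lower, unwounded oral over facial 1 higher and 1 lower (P4ha1 at 0.029), day 4 oral over facial 0 lower, and 3 intervals of the wound difference lay above 0. Without mitochondrial and the 50 most abundant genes in the total, unwounded oral over facial had 2 lower, day 4 oral over facial 0 lower, and 4 intervals lay above 0. With the mean over spots, facial day 4 had 5 higher, unwounded oral over facial 1 higher and 2 lower, and 2 intervals lay above 0. In spots under 1% muscle markers, facial day 4 had 1 lower and day 4 oral over facial 0 lower. Per collagen UMI, facial day 4 had 0 higher and 3 lower, oral day 4 had 1 higher and 5 lower (Loxl1 -1.22, Loxl2 -1.18), unwounded oral over facial had 7 higher and 1 lower (Loxl2 1.23, Loxl3 1.55, Plod1 1.68, P4ha1 1.72), day 4 oral over facial had 7 higher and 0 lower (Loxl2 0.31), and the wound difference had 1 interval above and 5 below 0. Col1a1 alone in the divisor gave 7 lower in facial day 4. Per fibroblast-marker UMI, facial day 4 had 2 lower, oral day 4 had 1 lower, unwounded oral over facial 3 higher and 1 lower (Loxl3 0.24, Plod1 0.37, P4ha1 0.41), day 4 oral over facial 7 higher and 0 lower (Loxl2 0.35), and 4 intervals lay above 0. The fibroblast-marker sum was lower in oral mucosa than in facial skin, at log2 ratios of -1.14 unwounded and -0.98 at day 4. Dividing by it raises the oral over facial ratio of every gene by the same amount. A minimum of 100 UMIs left 0 higher in facial day 4, 3 in oral day 4 and 1 in day 4 oral over facial. A 2-fold limit left 3 higher in oral day 4, 2 lower in unwounded and 0 lower in day 4 oral over facial. Leaving out each of the 4 parts of a section in turn gave 0 to 4 higher and 0 to 2 lower in facial day 4, 2 to 5 higher and 0 lower in oral day 4, 0 higher and 2 to 6 lower in unwounded oral over facial, and 0 to 3 higher and 0 to 3 lower in day 4 oral over facial. No paired analysis was possible because each group has 1 section and the labels give no replicate numbers. Depth limits the scarce members most, since Plod2 rests on 20 to 49 UMIs a section.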
